A study of Mus musculus with 24 samples.

Results

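The 9 genes described here encode transporters, blood group antigens and carbonic anhydrases of the red cell. They were chosen by symbol, as the rows of the expression table whose Ensembl identifier carries that symbol in GENCODE vM21, and they are 9 of the 54752 genes in the table. The choice was made with earlier results of these data known. Slc6a9, Slc2a1, Slc14a1 and Aqp1 encode carriers and channels, Kel, Rhd and Ermap encode blood group antigens, and Car1 and Car2 encode carbonic anhydrases. RNA of bone marrow cells from 24 male C57BL/6 mice was sequenced, with a library per mouse and 6 mice in each group. GC-WT mice were wild-type ground controls, FL-WT mice were wild-type mice that had flown, and GC-KO and FL-KO mice were the Nrf2-KO ground controls and the Nrf2-KO mice that had flown. Nrf2-KO mice lack the transcription factor Nrf2, encoded by Nfe2l2, in every cell of the body. The flight mice were 8 weeks old when they were moved to the launch site, which was 3 weeks before launch. They stayed in space for 31 days and were sampled 2 days after landing, so that flight and the return to the ground cannot be told apart. The marrow came from the right pelvis and tibia and was cryopreserved, and no cell type was sorted from it. The blood of the flight mice was measured in the USA and that of the ground controls in Japan, and such differences in handling cannot be told apart from flight.

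Erythroid precursors in the marrow fill themselves with haemoglobin, and late in this course they build the membrane of the red cell. That membrane holds water, urea and anion channels, carriers that feed haem synthesis and metabolism, and the glycoproteins that are known as blood group antigens. Inside the cell, carbonic anhydrases interconvert carbon dioxide and bicarbonate, and bicarbonate leaves through the anion exchanger band 3, encoded by Slc4a1. The nuclear factors GATA-1 and Tal1 are known to drive many of these genes in erythroid cells. Several of the 9 genes are also used elsewhere. Aqp1 and Slc2a1 are known from endothelial cells, Slc2a1 from many dividing cells, and Car2 from osteoclasts, in which it supplies protons for bone resorption.

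Promoter sequence is shown for 5 of the genes, of which 4 moved together after flight and the other, Slc2a1, was not among the DEGs. Slc6a9 fell after flight with these 4, but its windows are not printed here. The RefSeq promoter table on GRCm38.p6 held a window of 300 bases for 6 of the 9 genes, with 3 windows for Slc6a9. Each line gives the 120 bases before the annotated start, 5′ to 3′ on the strand of the gene, and capitals mark the word AGATAA or the word TGATAA, or the same words with a final G in place of the last A, on either strand, the letters that GATA factors are known to read. The Kel window is chr6:41704326-41704445 on the minus strand, and that of Ermap is chr4:119189996-119190115 on the minus strand. The Rhd, Aqp1 and Slc2a1 windows are chr4:134864416-134864535, chr6:55336179-55336298 and chr4:119108625-119108744, all on the plus strand.
Kel: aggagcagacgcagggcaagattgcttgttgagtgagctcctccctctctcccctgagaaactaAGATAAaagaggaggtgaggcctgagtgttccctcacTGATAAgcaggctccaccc
Rhd: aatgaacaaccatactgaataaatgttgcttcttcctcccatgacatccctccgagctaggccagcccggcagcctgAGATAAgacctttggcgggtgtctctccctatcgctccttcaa
Ermap: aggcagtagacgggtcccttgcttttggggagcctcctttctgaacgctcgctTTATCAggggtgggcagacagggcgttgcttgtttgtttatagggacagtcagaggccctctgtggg
Aqp1: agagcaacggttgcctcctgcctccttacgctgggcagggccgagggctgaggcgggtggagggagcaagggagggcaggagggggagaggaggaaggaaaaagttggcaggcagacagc
Slc2a1: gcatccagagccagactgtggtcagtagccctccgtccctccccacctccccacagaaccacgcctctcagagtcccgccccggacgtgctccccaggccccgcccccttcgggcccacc

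The antigen genes Kel, Rhd and Ermap held such a word, at 56 and 19 bases before the start of Kel, at 43 bases before that of Rhd and at 67 bases before that of Ermap. In Ermap it lies on the other strand and reads TTATCA in the line above. The transporter genes Aqp1, Slc2a1 and Slc6a9 held none in their windows, and 29.8% of all 32851 promoter windows of this length held at least 1. For Nrf2, the letters TGACNNNGC (either strand, N for any base) were present in the windows of Slc6a9 that start at positions 117849100 and 117855297 of chromosome 4 and in none of the other windows of these genes, against 12.4% of all windows. The letters CCNCNCCC, which Krüppel-like factors are known to read, were found in windows of Slc6a9, Slc2a1, Rhd and Aqp1 and in 49.5% of all windows. These are matches of letters and were not measured as binding.

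The genes lie on 4 chromosomes of GRCm38. Slc6a9 (ENSMUSG00000028542.17) is at chr4:117834506-117875198, Slc2a1 (ENSMUSG00000028645.11) at chr4:119108711-119137983, Ermap (ENSMUSG00000028644.16) at chr4:119175457-119190011 and Rhd (ENSMUSG00000028825.7) at chr4:134864536-134896172. Slc2a1 and Ermap are separated by 37.5 kb. Kel (ENSMUSG00000029866.13) is at chr6:41686330-41704339 and Aqp1 (ENSMUSG00000004655.5) at chr6:55336432-55348555. Car1 (ENSMUSG00000027556.15, chr3:14766216-14808368) and Car2 (ENSMUSG00000027562.12, chr3:14886273-14900770) are 77.9 kb apart on opposite strands, and Slc14a1 (ENSMUSG00000059336.14) is on chromosome 18. All 9 are protein-coding genes, and the TPM value of a gene sums its whole set of exons. B4galt2 and Ccdc24 overlap Slc6a9 on the other strand, and the libraries were directional, but the strand setting of the quantification is not given in the sources used here.

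The expression table gives TPM (transcript abundance), which is scaled for transcript length and to the same sum in each library, so that levels can be compared between genes. It holds no read counts, the depth per library is unknown, and no counting error can be given. Nfe2l2, the targeted gene, lay between 17.1 and 26.1 TPM in GC-WT and between 11.4 and 27.3 TPM in FL-WT mice, against 3.60 to 7.18 TPM in GC-KO and 2.22 to 4.31 TPM in FL-KO mice, without overlap between genotypes. A set of 5 small non-coding RNAs took between 35.4% and 59.6% of all TPM in a library. TPM values of most genes were lower in flight mice and without Nrf2. Over the 12373 genes tested, the median log2 fold change by flight was -0.24 in wild-type and -0.29 in Nrf2-KO mice, and that by loss of Nrf2 was -0.22 on the ground and -0.25 after flight. Changes of the 9 genes are therefore also given relative to these medians. The 24 libraries entered a single limma model of log2(TPM + 1). DEGs are genes with an adjusted p (Benjamini-Hochberg) under 0.1 whose fold change on this scale was 2 or more. The scale shrinks the changes of genes at a few TPM.

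In the GC-WT mice, Car2 was the most abundant of the 9 genes at 494 ± 133 TPM (SD, n = 6), rank 128 of the 12373 genes tested. Aqp1 followed at 131 ± 30.5 TPM (SD, n = 6), then Rhd at 80.0 ± 17.1 TPM (SD, n = 6) and Car1 at 67.1 ± 18.3 TPM (SD, n = 6). Ermap, Kel, Slc6a9 and Slc14a1 ranged from 46.4 down to 17.9 TPM in the mean, and Slc2a1 was lowest at 3.02 ± 0.647 TPM (SD, n = 6), rank 7810. Car2 lay above Aqp1 in every GC-WT mouse without overlap of the ranges, and Slc14a1 likewise lay above Slc2a1. The neighbours Aqp1 and Rhd, Rhd and Car1, Car1 and Ermap, Ermap and Kel, Kel and Slc6a9, and Slc6a9 and Slc14a1 overlapped in their ranges over the 6 mice. The place of Car1 in this order differed between groups. It ranked above Rhd in the mean in the GC-KO, FL-WT and FL-KO mice, and above Aqp1 in the FL-KO mice, at 58.2 ± 15.9 against 44.6 ± 14.2 TPM (SD, n = 6 each), with overlapping ranges.

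**Figure D1:**
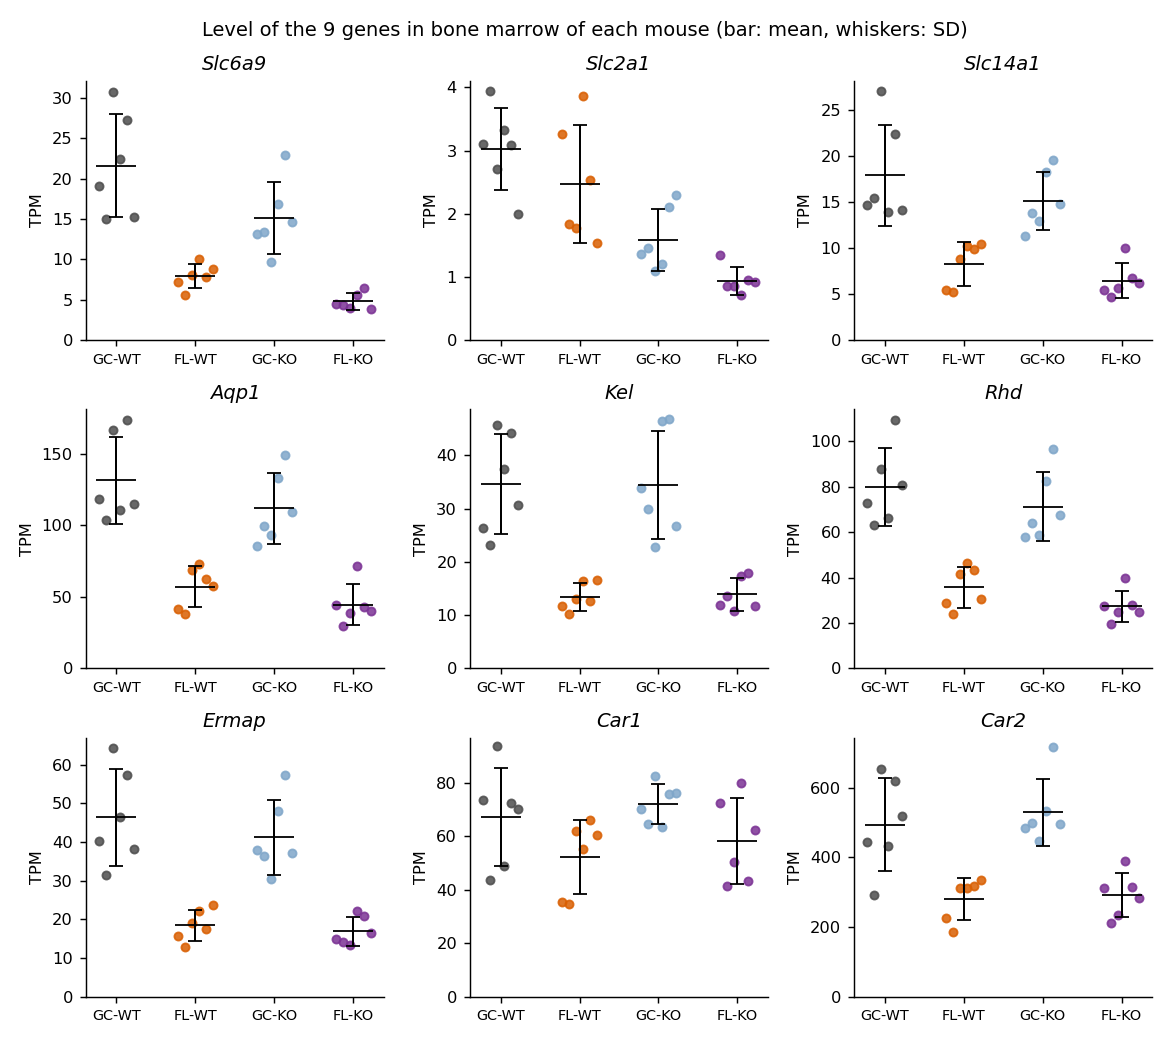
TPM of each of the 9 genes in bone marrow (vertical axis, from 0) in the 6 mice of each group (points), with the mean (bar) and the SD (whiskers). For Slc6a9, Slc14a1, Aqp1, Kel, Rhd and Ermap the flight mice of each genotype lie below all of its ground controls, while the points of Car1 overlap in every comparison and those of Slc2a1 separate only between FL-KO and FL-WT.

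Whether flight changed these genes was asked by comparing FL-WT vs. GC-WT (the wild-type flight comparison) and, among mice without Nrf2, FL-KO vs. GC-KO (the Nrf2-KO flight comparison). In both comparisons 6 of the 9 genes fell as DEGs, namely Slc6a9, Slc14a1, Aqp1, Kel, Rhd and Ermap, and none rose. Their levels after flight were between 31.6% (Slc6a9 in Nrf2-KO mice) and 46.3% (Slc14a1 in wild-type mice) of those on the ground. Among all genes tested, 0.938% were called lower by this rule in the wild-type and 2.13% in the Nrf2-KO flight comparison. At an adjusted p under 0.1 without a minimum fold change, 7 of the 9 genes were lower in the wild-type and 8 of 9 in the Nrf2-KO comparison, against 39.0% and 53.1% of all genes. The 6 DEGs, and Car2 in FL-KO vs. GC-KO, were lower in every flight mouse than in every ground control of the same genotype, that is 6 and 7 of 9 genes, where 4.19% and 18.4% of all genes showed this. For each such separation, permuting the rank sum (exact, two-sided) gave p = 0.00216, the smallest p that 6 against 6 mice can give (0.00557 adjusted over 36 tests). The median log2 fold change of the 9 genes was -1.16 in wild-type mice, or -0.91 relative to that of all genes, and -1.22 in Nrf2-KO mice, or -0.94 relative to it. In bulk marrow, fewer cells of a type and less RNA per cell cannot be told apart.

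**Figure D2:**
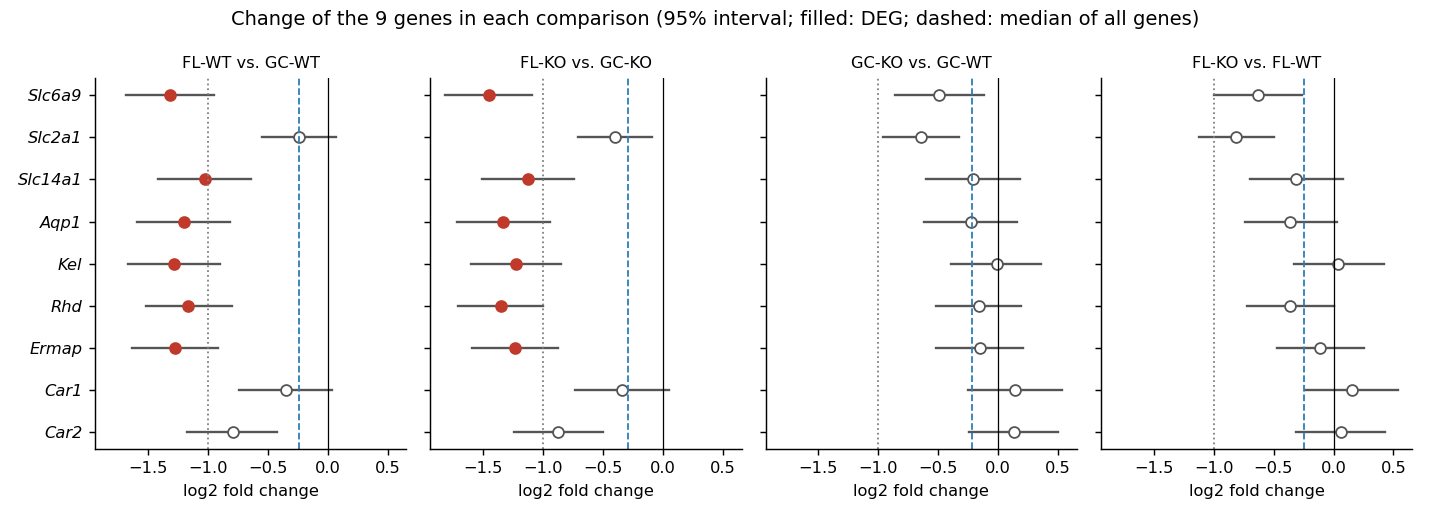
Log2 fold change of each gene on the log2(TPM + 1) scale (horizontal axis) in the 4 comparisons, with the 95% interval from limma (lines). Filled points are DEGs, the dashed line is the median of all genes tested (-0.24, -0.29, -0.22 and -0.25 from left to right), and the dotted line marks a fold change of 2 downwards. The 6 filled points are the same genes in both flight comparisons, and no gene is a DEG between genotypes.

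Among the transporters, Slc6a9 encodes the glycine carrier GlyT1, which supplies erythroid precursors with glycine for haem. It lay between 15.0 and 30.7 TPM in GC-WT mice (median 20.7) and between 5.61 and 10.1 TPM in FL-WT mice (median 7.94). In Nrf2-KO mice it lay between 9.70 and 22.9 TPM on the ground (median 14.0) and between 3.77 and 6.40 TPM after flight (median 4.42). The lowest ground control thus exceeded the highest flight mouse in each genotype. It had the largest fall of the 9 genes in both comparisons, with a log2 fold change of -1.31 ± 0.18 (SE; limma adjusted p = 4.46e-05) in wild-type and -1.45 ± 0.18 (SE; limma adjusted p = 1.45e-05) in Nrf2-KO mice.

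Aqp1 encodes the water channel aquaporin 1, which carries the Colton antigen in humans. Its levels were 104 to 174 TPM in GC-WT mice (median 116) and 38.0 to 73.0 TPM in FL-WT mice (median 60.1). They were 85.8 to 149 TPM in GC-KO mice (median 105) and 29.8 to 71.6 TPM in FL-KO mice (median 41.5), where mouse 09 stood above the other 5. The groups did not overlap in either genotype. Aqp1 fell by 1.20 ± 0.19 (SE) on the log2 scale in wild-type mice (limma adjusted p = 0.000104) and by 1.33 ± 0.19 (SE) in Nrf2-KO mice (limma adjusted p = 2.62e-05).

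Slc14a1 encodes the urea transporter UT-B, which carries the Kidd antigen in humans. From 13.9 to 27.1 TPM in GC-WT mice (median 15.1), its level went to 5.19 to 10.4 TPM in FL-WT mice (median 9.34). From 11.3 to 19.6 TPM in GC-KO mice (median 14.3), it went to 4.64 to 10 TPM in FL-KO mice (median 5.92). The ranges were again separate in both genotypes. Its log2 fold changes were the smallest among the 6 DEGs, at -1.02 ± 0.19 (SE; limma adjusted p = 0.00051) and -1.12 ± 0.19 (SE; limma adjusted p = 0.000115). In wild-type mice this value is close to the fold threshold, and Slc14a1 was no longer a DEG, with a log2 fold change of as little as -0.90, when GC-WT mouse 06 or 08 or FL-WT mouse 03 or 05 was left out.

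Slc2a1 encodes the glucose carrier GLUT1, which is abundant on human red cells and is known to be lost from those of adult mice. It lay between 2.0 and 3.94 TPM in GC-WT mice (median 3.09) and between 1.54 and 3.86 TPM in FL-WT mice (median 2.19), with ranges that overlapped. The log2 fold change of -0.24 (95% interval -0.55 to 0.07; limma adjusted p = 0.223) equalled the median of all genes. In Nrf2-KO mice it fell, from 1.09 to 2.29 TPM on the ground (median 1.41) to 0.710 to 1.35 TPM after flight (median 0.880). That log2 fold change was -0.40 (95% interval -0.71 to -0.09; limma adjusted p = 0.0369), or -0.11 relative to all genes, and the call was lost with each of 4 other scalings between libraries, with log2 fold changes of -0.38 to 0.05 (limma adjusted p between 0.124 and 0.774).

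Of the antigens, Kel encodes the Kell glycoprotein, an endothelin-cleaving enzyme of the red cell membrane. Its levels were 23.2 to 45.8 TPM in GC-WT mice (median 34.1) and 10.2 to 16.6 TPM in FL-WT mice (median 12.8). They were 22.8 to 46.8 TPM in GC-KO mice (median 31.9) and 10.8 to 17.9 TPM in FL-KO mice (median 12.8). The flight mice of the 2 genotypes thus covered nearly the same range. Kel fell by 1.28 ± 0.18 (SE) on the log2 scale in wild-type mice (limma adjusted p = 5.51e-05) and by 1.22 ± 0.18 (SE) in Nrf2-KO mice (limma adjusted p = 4.15e-05).

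Rhd encodes the Rh blood group protein of the mouse, which sits in the membrane together with the glycoprotein encoded by Rhag. Ground controls ranged from 63.0 to 110 TPM in GC-WT (median 76.8) and from 58.0 to 96.7 TPM in GC-KO mice (median 66.0). Flight mice ranged from 23.9 to 46.3 TPM in FL-WT (median 35.9) and from 19.4 to 39.9 TPM in FL-KO mice (median 26.3). All flight mice were thus below all ground controls. Its mean after flight was 44.6% of that on the ground in wild-type mice (log2 fold change -1.16 ± 0.17 SE; limma adjusted p = 6.68e-05) and 38.5% in Nrf2-KO mice (-1.35 ± 0.17 SE; limma adjusted p = 1.45e-05).

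Ermap encodes the erythroid membrane-associated protein, an immunoglobulin-like protein that carries the Scianna antigen in humans. It ranged from 31.6 to 64.4 TPM in GC-WT (median 43.3) and from 12.8 to 23.7 TPM in FL-WT mice (median 18.3). The corresponding ranges in Nrf2-KO mice were 30.4 to 57.2 TPM (median 37.6) and 13.3 to 22.2 TPM (median 15.7). The groups were separate in both genotypes, and the log2 fold changes were -1.27 ± 0.18 (SE; limma adjusted p = 4.46e-05) and -1.23 ± 0.18 (SE; limma adjusted p = 2.68e-05).

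Neither carbonic anhydrase gene was a DEG after flight. Car2 encodes the fast isoform, and it ranged from 292 to 653 TPM in GC-WT mice (median 482) and from 185 to 334 TPM in FL-WT mice (median 311). In GC-KO mice it ranged from 447 to 716 TPM (median 497), with mouse 11 above the other 5, and in FL-KO mice from 212 to 391 TPM (median 298). The wild-type groups overlapped and the Nrf2-KO groups did not. Car2 fell by 0.79 ± 0.18 (SE) on the log2 scale in wild-type mice (limma adjusted p = 0.00291) and by 0.87 ± 0.18 (SE) in Nrf2-KO mice (limma adjusted p = 0.000866), which is less than a fold change of 2 in both.

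Car1 encodes the slower isoform that is abundant in red cells. It lay between 43.7 and 93.7 TPM in GC-WT mice (median 71.3) and between 34.7 and 66.1 TPM in FL-WT mice (median 58.0), and between 63.2 and 82.3 TPM in GC-KO mice (median 72.8) and 41.3 and 79.9 TPM in FL-KO mice (median 56.2). Flight and ground mice overlapped in both genotypes. The log2 fold changes were -0.35 (95% interval -0.74 to 0.04; limma adjusted p = 0.155) and -0.34 (95% interval -0.73 to 0.05; limma adjusted p = 0.142), close to the medians of all genes. The intervals do not include a fold change of 2.

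Because a scaling factor common to a library cancels in a ratio of 2 genes, apart from the effect of the pseudocount on low values, 3 ratios were compared as well, each as the log2 ratio of TPM + 1. The Car1 to Car2 ratio was higher after flight, at -2.42 ± 0.14 (SD, n = 6) in FL-WT against -2.86 ± 0.21 (SD, n = 6) in GC-WT mice, with values of -2.32 ± 0.27 (SD, n = 6) in FL-KO against -2.85 ± 0.28 (SD, n = 6) in GC-KO mice. The differences were 0.44 (exact permutation test, p = 0.00433, 0.026 adjusted over 12 tests) and 0.53 (exact permutation test, p = 0.013, adjusted 0.039), with ranges that overlapped. Between genotypes this ratio differed by 0.01 on the ground and by 0.10 after flight (exact permutation test, p = 0.942 and 0.468, adjusted 0.942 and 0.567).

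The Slc6a9 to Slc2a1 ratio fell, from 2.46 ± 0.48 (SD, n = 6) in GC-WT to 1.38 ± 0.37 (SD, n = 6) in FL-WT mice and from 2.61 ± 0.31 (SD, n = 6) in GC-KO to 1.56 ± 0.31 (SD, n = 6) in FL-KO mice. These differences were -1.07 (exact permutation test, p = 0.00649, adjusted 0.026) and -1.05 (exact permutation test, p = 0.00216, adjusted 0.026), and the Nrf2-KO groups did not overlap. Slc2a1 is low enough for the pseudocount to matter in this ratio, and both differences kept their direction and an exact permutation p under 0.05 with a pseudocount of 0.1. For the antigen genes Kel and Rhd, the ratio differed between flight and ground by -0.12 in wild-type (exact permutation test, p = 0.478) and by 0.13 in Nrf2-KO mice (exact permutation test, p = 0.422), less than the SD between mice of 0.24 to 0.31. In FL-KO vs. FL-WT the Kel to Rhd ratio was 0.40 higher (exact permutation test, p = 0.0498, adjusted 0.119), which did not pass the adjustment.

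**Figure D3:**
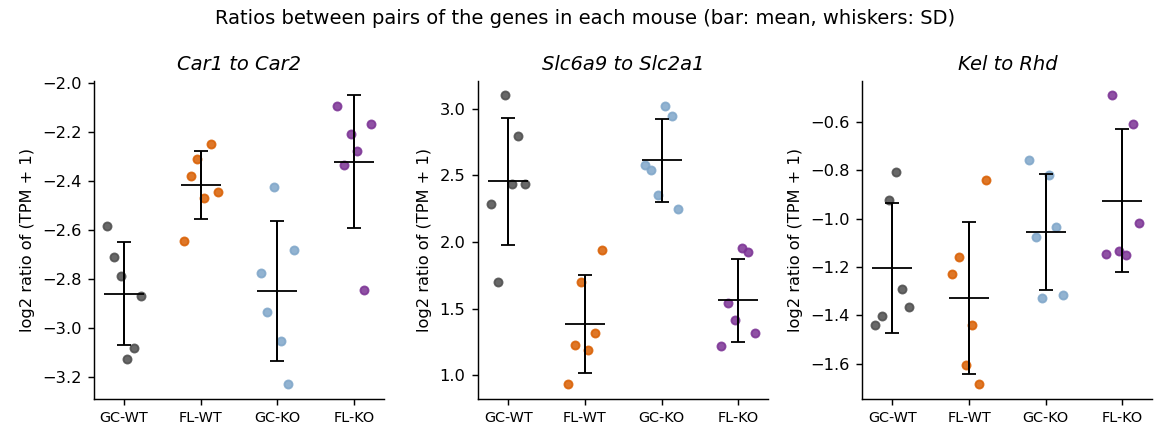
Log2 ratio of TPM + 1 for 3 pairs of genes (vertical axis) in the 6 mice of each group (points), with the mean (bar) and the SD (whiskers). After flight the Car1 to Car2 ratio lies higher, the Slc6a9 to Slc2a1 ratio lies lower, and the Kel to Rhd ratio overlaps between flight and ground.

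Whether the effect of flight differed between genotypes was tested as the interaction of flight and genotype, the flight effect in Nrf2-KO mice minus that in wild-type mice. For the 9 genes it ranged from -0.20 ± 0.25 (SE) for Rhd to 0.06 ± 0.26 (SE) for Kel on the log2 scale, and none passed an adjusted p under 0.1 or an unadjusted p under 0.05 in limma. Of all 12373 genes, 2 (0.0162%) passed the adjusted p and 428 the unadjusted p. The 95% intervals reached from -0.70 to 0.31 for Rhd, from -0.66 to 0.38 for Slc6a9 and from -0.48 to 0.59 for Kel, so that smaller differences between genotypes in the response to flight were not resolved with 6 mice a group.

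The effect of Nrf2 loss was asked on the ground (GC-KO vs. GC-WT) and after flight (FL-KO vs. FL-WT). No gene of the 9 was a DEG in either comparison, where 3.04% and 8.36% of all genes were called lower. With limma at an unadjusted p under 0.05, 2 of the 9 genes passed on the ground and 3 after flight, against 46.7% and 49.2% of all genes. At an adjusted p under 0.1 these were Slc6a9 and Slc2a1 on the ground and Slc6a9, Slc2a1 and Rhd after flight, all lower, against 42.9% and 47.2% of all genes. The only separation without overlap was that of Slc2a1 in FL-KO vs. FL-WT, so 0 and 1 of 9 genes against 9.15% and 20.6% of all genes. The median log2 fold change of the 9 genes was -0.16 on the ground and -0.31 after flight, within 0.06 of the median of all genes in both.

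Slc2a1 was the gene with the largest difference between genotypes. On the ground its mean was 1.58 ± 0.494 TPM (SD, n = 6) without Nrf2 against 3.02 ± 0.647 TPM (SD, n = 6) in wild-type mice. After flight these means were 0.937 ± 0.218 and 2.47 ± 0.930 TPM (SD, n = 6 each). The log2 fold changes were -0.64 ± 0.15 (SE; limma adjusted p = 0.00184) and -0.81 ± 0.15 (SE; limma adjusted p = 0.000108), or -0.42 and -0.56 relative to all genes. With a pseudocount of 0.1 in place of 1, Slc2a1 became a DEG in FL-KO vs. FL-WT with a log2 fold change of -1.26. Removing the trends of each library with GC content and transcript length left -0.17 and -0.18 (limma adjusted p = 0.269 and 0.209), which ended both calls.

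Slc6a9 was at 15.1 ± 4.47 TPM (SD, n = 6) in GC-KO against 21.6 ± 6.44 TPM (SD, n = 6) in GC-WT mice. This log2 fold change was -0.49 ± 0.18 (SE; limma adjusted p = 0.0326). After flight it was -0.63 ± 0.18 (SE; limma adjusted p = 0.00544), but the direction turned to 0.10 and 0.17 when GC and length trends were removed. Kel, Ermap, Aqp1, Slc14a1, Rhd, Car1 and Car2 had log2 fold changes between -0.36 and 0.15 in the genotype comparisons, and only Rhd in FL-KO vs. FL-WT passed an adjusted p under 0.1 (limma adjusted p = 0.0994). With median-of-ratios scaling, Kel, Car1 and Car2 passed as higher in Nrf2-KO mice in both comparisons, and Ermap in FL-KO vs. FL-WT (limma adjusted p between 0.00982 and 0.0716). In FL-KO vs. FL-WT, Kel and Ermap also passed as higher with quantile normalization and with GC and length trends removed. Car1 did so with quantile normalization. The shares of all genes that were higher under these scalings are not given here. With median-of-ratios scaling the median log2 fold change of all genes was 0.02 in both genotype comparisons. Over the 4 other scalings, Slc14a1, Aqp1, Rhd and Ermap took both directions in both genotype comparisons and Kel and Car2 on the ground alone, while Car1 was higher in Nrf2-KO mice throughout.

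The fall after flight kept its direction. Under median-of-ratios scaling, quantile normalization, rescaling without the 5 small RNAs and removal of GC and length trends, each of the 6 DEGs and Car2 was lower with an adjusted p under 0.1 in both flight comparisons (limma). The size did depend on it: over these settings the log2 fold changes of the 6 genes lay between -1.39 and -0.66 in wild-type and between -1.37 and -0.73 in Nrf2-KO mice. With median-of-ratios scaling, 0 of the 9 genes in wild-type and 1 (Slc6a9, -1.07) in Nrf2-KO mice reached a fold change of 2, as did 0.121% and 0.178% of all genes, while 7 of 9 were lower at an adjusted p under 0.1 in each, against 13.6% and 20.4% of all genes.

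**Figure D4:**
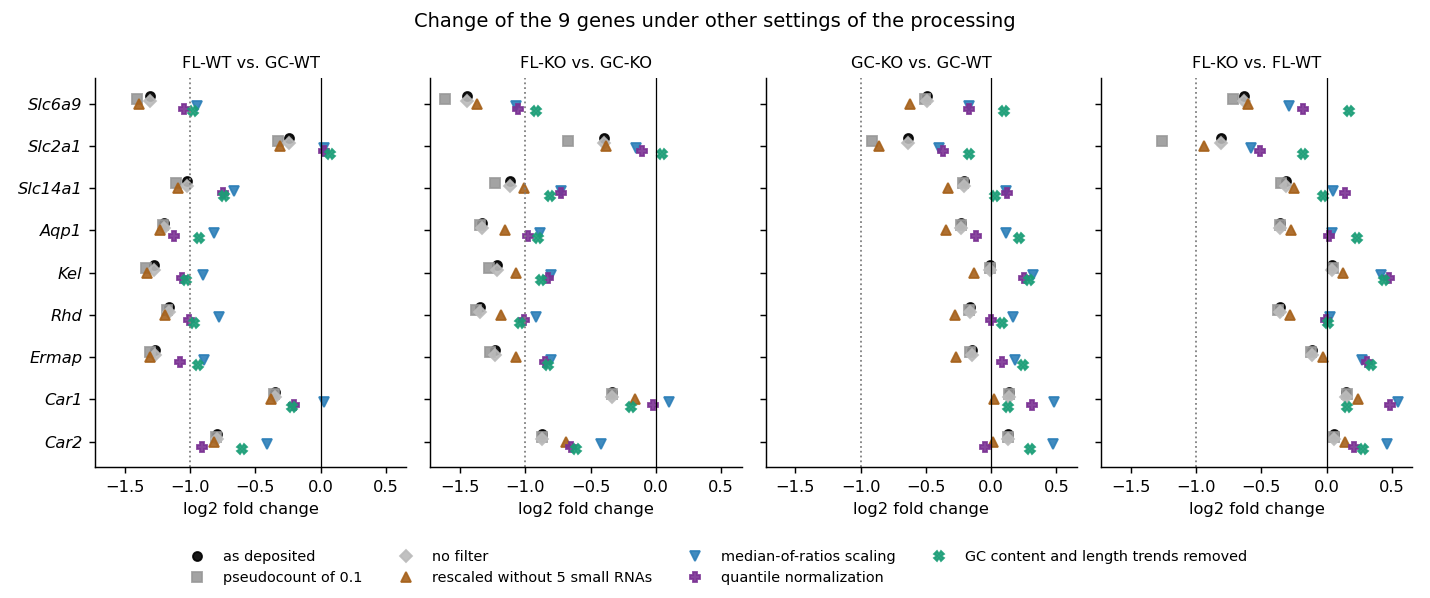
Log2 fold change of each gene (horizontal axis) in the 4 comparisons as deposited (black circles) and under 6 other settings of the processing (other symbols); the dotted line marks a fold change of 2 downwards. In the flight comparisons the points of the 6 DEGs and Car2 stay left of 0 under every setting shown, and in the genotype comparisons most genes have points on both sides of 0.

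The 6 DEGs also varied together from mouse to mouse. Over the 24 libraries, Pearson's r of log2(TPM + 1) between them ranged from 0.91 to 0.99 over 15 pairs, and it ranged from 0.64 to 0.95 after the mean of each group was subtracted. These points share the scaling of their library. The r over the 24 libraries also holds the fall after flight by which the 6 genes were picked. No r of pairs of other genes is given here as a background. The closest pair was Aqp1 and Rhd (0.99, and 0.95 within groups), and Kel followed Ermap (0.98, and 0.93 within groups). Car2 followed the 6 genes with r of 0.75 to 0.87 within groups, and Car1 with 0.26 to 0.70. Slc2a1 did not follow them, with r of -0.04 to 0.25 within groups.

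The genes whose levels were most like those of each member were sought among 5017 other genes at a mean of at least 5 TPM. Slc6a9 was most like Add2, Ank1 and Dmtn (r between 0.990 and 0.991), which encode adducin, ankyrin and dematin of the red cell skeleton. Among those most like Kel were Btnl10 and Samd11 (0.986 and 0.979), and Ermap was most like Btnl10, Epb42 and Slc16a10 (0.988 to 0.991), where Epb42 encodes a protein of the membrane skeleton. Rhd was most like Icam4, Alad and Tal1 (0.977 to 0.985), Aqp1 most like Alad, Ctse and Slc38a5 (0.985 to 0.989), and Slc14a1 most like Slc16a1, Tal1 and Tpm1 (0.979 to 0.981). Icam4 encodes a further blood group antigen, Alad an enzyme of haem synthesis, and Tal1 an erythroid transcription factor. Car2 was most like March5, Dhrs11 and Blvrb (0.975 to 0.981), and Car1, less closely, most like Hist2h2bb, Gstm5 and Hebp1 (0.869 to 0.877). Slc2a1 was most like Hlx, Stat3 and Irf2 (0.967 to 0.971), which encode transcription factors used widely in blood cells. Slc2a1 was thus counted with the red cell genes by its symbol, but its level in these libraries did not follow theirs.

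Related genes outside the 9 were counted in 3 lists. Of 24 other red cell transporters and channels, 22 were tested, and flight lowered 5 of them as DEGs in wild-type and 8 in Nrf2-KO mice, with none higher. Among all genes, 0.938% and 2.13% were called lower. The median log2 fold changes of the 22 were -0.74 and -0.88, against -0.24 and -0.29 for all genes. Slc4a1, the anion exchanger that works with the carbonic anhydrases, went from 293 to 596 TPM in GC-WT mice to 138 to 252 TPM in FL-WT mice. In Nrf2-KO mice it went from 210 to 522 TPM to 73.0 to 121 TPM, without overlap in either genotype. Its log2 fold changes were -1.15 ± 0.20 (SE; limma adjusted p = 0.000274) and -1.78 ± 0.20 (SE; limma adjusted p = 8.3e-06), the largest fall of the list in Nrf2-KO mice. Mfsd2b, the sphingosine-1-phosphate exporter of red cells, changed by -1.25 and -1.29, and the amino acid carrier gene Slc43a1 by -1.22 and -1.28 (limma adjusted p between 1.45e-05 and 7.13e-05). With median-of-ratios scaling this list held 0 and 1 DEGs, against 0.121% and 0.178% of all genes called lower. With the same scaling 15 and 17 of the 22 were lower at an adjusted p under 0.1, against 13.6% and 20.4% of all genes.

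Of 17 other blood group antigens and partners, 16 were tested, and flight lowered 3 of them as DEGs in wild-type and 4 in Nrf2-KO mice, with none higher and with medians of -0.57 and -0.74. The share of all genes called lower was 0.938% and 2.13%. Rhag, the partner of Rhd, changed by -1.06 ± 0.17 (SE; limma adjusted p = 0.000135) and -1.16 ± 0.17 (SE; limma adjusted p = 3.37e-05). Xk, whose product is linked to the Kell glycoprotein, fell less, by 0.73 ± 0.18 (SE; limma adjusted p = 0.005) and 0.72 ± 0.18 (SE; limma adjusted p = 0.00363) on the log2 scale. Gypc, which encodes glycophorin C of the Gerbich antigen, changed by -1.17 and -1.13, and Ackr1, which encodes the Duffy chemokine receptor, by -1.12 and -1.31 (limma adjusted p between 1.45e-05 and 6.9e-05). With median-of-ratios scaling this list held 0 DEGs in either genotype, while 7 and 10 were lower and 2 and 1 higher at an adjusted p under 0.1. Of all genes, 13.6% and 20.4% were lower at that adjusted p with this scaling, and the shares that were higher are not given here. None of the 14 other carbonic anhydrase genes exceeded 1 TPM in any library, so none was tested, and the highest was Car13 at 0.350 to 0.910 TPM.

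**Figure D5:**
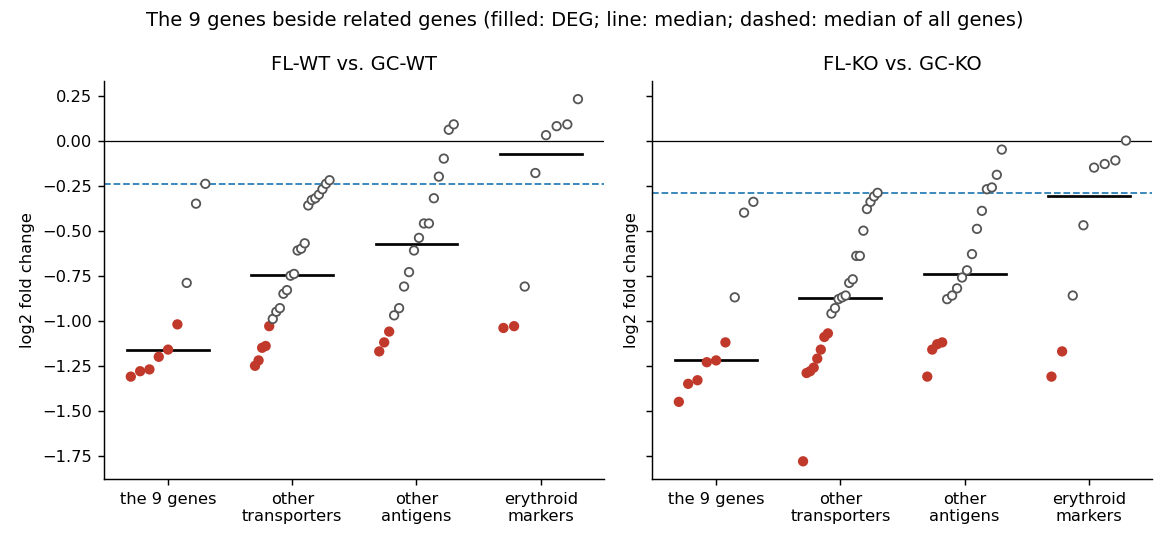
Log2 fold change (vertical axis) of the 9 genes, of the tested genes among other red cell transporters and other antigens, and of 8 erythroid markers after flight (points; filled for DEGs), with the median of each list (line) and of all genes (dashed). The 9 genes have the lowest median in both genotypes, at -1.16 and -1.22, and the erythroid markers lie close to all genes, at -0.07 and -0.31. The 9 genes and the lists were chosen with earlier results of these data known. The antigen and erythroid lists share 1 gene.

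Markers of the erythroid lineage itself divided. The summed TPM of 8 erythroid markers, most of it from the globins, lay between 86663 and 203445 in GC-WT and between 144744 and 206652 in FL-WT mice, and between 165583 and 244185 in GC-KO and 152760 and 222420 in FL-KO mice. These ranges overlapped. The globin genes Hba-a1, Hba-a2, Hbb-bs and Hbb-bt had log2 fold changes between -0.15 and 0.23 after flight, and none passed an adjusted p under 0.1. With median-of-ratios scaling they were higher by 0.42 to 0.62 in flight wild-type mice (limma adjusted p between 0.0246 and 0.0721), and Hbb-bs was higher by 0.45 in flight Nrf2-KO mice (limma adjusted p = 0.087). Under quantile normalization, rescaling without the 5 small RNAs and removal of GC and length trends, none of these globin genes passed in either flight comparison. Tfrc, the transferrin receptor, and Epor, the erythropoietin receptor, fell as DEGs in both genotypes, with log2 fold changes of -1.04 and -1.03 in wild-type and of -1.17 and -1.31 in Nrf2-KO mice (limma adjusted p between 1.45e-05 and 0.00117), and neither was a DEG with median-of-ratios scaling. Both stayed lower over 4 other scalings, with limma adjusted p of at most 0.00791. Their log2 fold changes then lay between -1.09 and -0.65 in wild-type and between -1.20 and -0.73 in Nrf2-KO mice.

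Other cell types that could hold these transcripts were followed by fixed markers. Of 6 endothelial markers, Kdr, Emcn, Tek and Tie1 did not exceed 1 TPM in any library, and the sum of the 6 lay between 8.32 and 11.8 TPM in GC-WT, 4.97 and 9.87 in FL-WT, 5.36 and 8.40 in GC-KO and 3.48 and 5.57 TPM in FL-KO mice. The 2 tested were lower in both flight comparisons at an adjusted p under 0.1 (limma), against 39.0% and 53.1% of all genes. Pecam1 changed by -0.51 and -0.41 and Cdh5 by -0.26 and -0.23 in wild-type and Nrf2-KO mice. Of 6 osteoclast markers, Ocstamp, Calcr and Dcstamp were not tested for the same reason, and the sum lay between 26.2 and 45.4 TPM in GC-WT, 19.2 and 29.5 in FL-WT, 24 and 32.4 in GC-KO and 13.8 and 24.1 TPM in FL-KO mice. Among the 3 tested, only Acp5 passed that rule, and it was lower in both flight comparisons (-0.41 in wild-type and -0.58 in Nrf2-KO mice). Megakaryocyte markers summed to 88.7 to 291 TPM in GC-WT, 44.7 to 155 in FL-WT, 93.4 to 180 in GC-KO and 30.5 to 133 TPM in FL-KO mice, and 4 of 6 were lower by flight in wild-type and 6 of 6 in Nrf2-KO mice at an adjusted p under 0.1 (limma), against 39.0% and 53.1% of all genes. B lineage markers were lower by the same rule in 6 of 6 genes in both, from 155 to 222 TPM in GC-WT to 78.2 to 200 TPM in FL-WT and from 98.8 to 153 TPM in GC-KO to 62.6 to 102 TPM in FL-KO mice. Neutrophil markers summed to 25233 to 50353 TPM in GC-WT, 39971 to 54792 in FL-WT, 38285 to 58887 in GC-KO and 46249 to 62799 TPM in FL-KO mice, most of it from S100a8 and S100a9. By flight 3 of the 6 neutrophil genes were higher in wild-type mice at an adjusted p under 0.1 (limma), against 0.994% of all genes. These were S100a8 (0.55), S100a9 (0.57) and Camp (0.36). In Nrf2-KO mice 2 of 6 were lower, against 53.1% of all genes, namely Ltf (-0.90) and Mpo (-1.06, a DEG). The part of these cell types in the change of the 9 genes was not tested.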

How the data were processed

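The members and gene lists were chosen with earlier results of these data known. Per the labels and the study's methods, RNA was isolated with ISOGEN-LS, directional MGIEasy libraries were run on a DNBSEQ-G400, and the authors used STAR 2.6.1 (mm10) for mapping and RSEM 1.3.1 for quantification. The deposited values are TPM, with column sums from 999999.5 to 1000001.1 and no depth.

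From the 54752 genes, those above 1 TPM in at least 1 library were tested (12373, with all 9 members), while 26504 had no signal in any library. Groups came from the sample labels. limma 3.58.1 (R 4.3.3) was fitted to log2(TPM + 1), adjusted over all tested genes by Benjamini-Hochberg, and the steps were tested on simulated data. P-values measure the spread between mice. Levels and ratios were compared by exact two-sided permutation in Python 3.11.15 with scipy 1.17.1. Positions are from GENCODE vM21 (GRCm38; 54723 identifiers matched) and promoters from RefSeq (GRCm38.p6).

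Named are all members, Rhag, Xk, Slc4a1 and Car13, of each related list the 3 DEGs with the largest changes in each flight comparison, and for each member the 3 genes with the highest r, of which 1 is not reported here. Alternatives varied the pseudocount (0.1), the filter (none, or more than 1 TPM in at least 6 libraries), the scaling (median of ratios, quantiles, without Rn7s1, Rn7s2, Rn7sk, Rpph1 and Rmrp, or without GC and length trends), the limma model (mean-expression trend, compared groups alone, mouse number as block), the thresholds, and the libraries, each being left out once. Rescaling with no minimum fold change was added after the data were seen.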

Additional observations from a re-analysis of the deposited data

Results flagged for a closer look

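In 48 sets of 6 mice (the 9 genes and 3 ratios in the 4 groups), 4 single mice stood far from the rest of their group, by the gap to the nearest mouse as a share of the range (Dixon's test at the 95% level). Chance flags about 1 in 20 such sets. In the FL-KO group, mouse 01 was highest for Slc2a1 at 1.35 TPM, mouse 09 was highest for Aqp1 at 71.64 TPM, and mouse 11 was lowest in the log2 ratio of Car1 to Car2 at -2.84. In the GC-KO group, mouse 11 was highest for Car2 at 716.25 TPM. Without any of these libraries the 6 genes called in FL-KO vs. GC-KO numbered 6 again. Without FL-KO mouse 11 the Car1 to Car2 ratio was 0.20 higher in Nrf2-KO than in wild-type flight mice (exact permutation test, p = 0.0216), against 0.10 (exact permutation test, p = 0.468) with it.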

How the results depend on the processing

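The number of the 9 genes called lower stayed within 1.5 times of 6 in both flight comparisons except under 3 rescalings. It was 0 in wild-type and 1 in Nrf2-KO mice with median-of-ratios scaling, 1 and 1 with GC and length trends removed, and 5 and 2 with quantile normalization, where 0.121% and 0.178%, 0.186% and 0.137%, and 0.259% and 0.202% of all genes were called lower. These settings move the median of all genes close to 0. In GC-KO vs. GC-WT the count went from 0 to 2 without a minimum fold change, against 42.9% of all genes. With median-of-ratios scaling and no minimum fold change it was 1, against 28.9% of all genes, and 3 members were called higher. In FL-KO vs. FL-WT the count went from 0 to 1 with a pseudocount of 0.1, for which the share of all genes is not given here. It was 3 without a minimum fold change, against 47.2% of all genes. With median-of-ratios scaling and no minimum fold change it was 2, against 32.9% of all genes, and 4 members were called higher. The 28.9% and 32.9% are shares called lower, and the shares of all genes called higher with that scaling are not given here. Leaving out a library gave 5 to 6 genes by flight in wild-type mice, 6 in Nrf2-KO mice and 0 in the genotype comparisons.

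Signs turned for several genes, among them Slc6a9 in both genotype comparisons and Slc2a1 in FL-KO vs. GC-KO, which had passed the adjusted p. In FL-WT vs. GC-WT, Slc2a1 turned to 0.03 with median-of-ratios scaling, 0.03 with quantile normalization and 0.07 with the trends removed, and Car1 to 0.03 with median-of-ratios scaling. For flight in Nrf2-KO mice, Slc2a1 turned to 0.05 with the trends removed and Car1 to 0.10 with median-of-ratios scaling. In GC-KO vs. GC-WT, median-of-ratios scaling gave 0.11 for Slc14a1, 0.11 for Aqp1, 0.32 for Kel, 0.17 for Rhd and 0.18 for Ermap. Quantile normalization gave 0.12 for Slc14a1, 0.25 for Kel, 0.08 for Ermap and -0.05 for Car2 there, and removal of the trends 0.10 for Slc6a9, 0.03 for Slc14a1, 0.21 for Aqp1, 0.29 for Kel, 0.08 for Rhd and 0.24 for Ermap. In FL-KO vs. FL-WT, median-of-ratios scaling gave 0.05 for Slc14a1, 0.04 for Aqp1, 0.03 for Rhd and 0.27 for Ermap, quantile normalization 0.14 for Slc14a1, 0.02 for Aqp1 and 0.31 for Ermap, and removal of the trends 0.17 for Slc6a9, 0.23 for Aqp1, 0.01 for Rhd and 0.34 for Ermap. Leaving out a library moved Kel between -0.12 and 0.09 and Car2 between -0.01 and 0.22 in GC-KO vs. GC-WT, and Kel between -0.03 and 0.11 and Car2 between -0.06 and 0.14 in FL-KO vs. FL-WT. The cause was not tested.

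The Car1 to Car2 ratio turned to -0.17 in GC-KO vs. GC-WT and to -0.13 in FL-KO vs. FL-WT with the trends removed, and leaving out a mouse moved it between -0.08 and 0.09 and between 0.05 and 0.20. Over mice left out, its flight differences lay between 0.39 and 0.50 in wild-type and between 0.45 and 0.63 in Nrf2-KO mice. For the Kel to Rhd ratio in FL-KO vs. FL-WT, the difference was 0.42 with a pseudocount of 0.1 (exact permutation test, p = 0.0541) and lay between 0.31 and 0.50 over mice left out. The interaction stayed at 0 of the 9 genes with a pseudocount of 0.1 and under 4 other scalings, 3 of which were added for it after the data were seen.

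Ground and flight mice of a genotype share mouse numbers but are different animals. Deviations from the group means correlated by between -0.05 and 0.40 in wild-type and between -0.03 and 0.35 in Nrf2-KO pairs, over 0.1 in 4 and 2 of 6 pairs, and 2 and 1 of 6 mice correlated best with their own number, so the numbers were not taken to pair the mice. With the replicate block, 6 genes were called in each flight comparison, and the Car1 to Car2 ratio in FL-WT vs. GC-WT kept its difference of 0.44 with an exact sign-flip p = 0.0625. The table gives no depth, so counting error at the level of Slc2a1 cannot be stated.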

Other observations

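Slc4a1, a DEG in both flight comparisons, was also a DEG in FL-KO vs. FL-WT, where the groups did not overlap. Its log2 fold change was -1.06 (limma adjusted p = 0.000106), and it lay between -0.98 and -0.27 over 4 other scalings (limma adjusted p between 3.42e-05 and 0.122). The genes below, from the same lists of related genes, were DEGs between genotypes as well. They are outside the rule for named genes and were chosen after their values were seen. Slc2a3, which encodes the glucose carrier GLUT3, went from 18.5 to 31.6 TPM in GC-WT mice to 8.08 to 18.4 TPM in GC-KO mice, without overlap. After flight it was at 13.4 to 37.9 TPM in FL-WT and 5.57 to 9.37 TPM in FL-KO mice, again without overlap. The log2 fold changes were -1.07 (limma adjusted p = 0.000653) and -1.48 (limma adjusted p = 5.51e-06), and over 4 other scalings they lay between -1.21 and -0.66 and between -1.46 and -1.02. Slc2a1, the other glucose carrier gene followed here, was lower in the same comparisons, with log2 fold changes of -0.64 and -0.81.

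Cd59a, which encodes an inhibitor of complement lysis on the cell surface, was at 1.88 to 4.70 TPM in GC-WT and 0.340 to 0.760 TPM in GC-KO mice. After flight it was at 1.45 to 3.06 TPM in FL-WT and 0.260 to 0.440 TPM in FL-KO mice. Its log2 fold changes between genotypes were -1.44 (limma adjusted p = 7.11e-08) and -1.09 (limma adjusted p = 1.45e-06), with -1.87 to -1.17 and -1.43 to -0.95 over the 4 other scalings. The choline transporter gene Slc44a2 was a DEG in the same direction in both comparisons, with log2 fold changes of -1.03 and -1.38.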
